A study of Mus musculus with 2 samples.

Results

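Lecticans, tenascins and the link proteins that tie lecticans to hyaluronan were examined in the embryonic mouse neural tube through 9 named genes. They are the lecticans Ncan, Bcan, Vcan and Acan, the link protein Hapln1, the tenascins Tnc and Tnr, and the membrane proteoglycans Cspg5 and Ptprz1. They were chosen by name and found by gene identifier among the 43346 annotated genes, and all 9 were present, with 29 transcripts in the transcript tables. The neural tube, which becomes the brain and spinal cord, was taken from healthy B6NCrl embryos at 15.5 days and measured as total RNA in 2 libraries. Replicate 1 came from a pool of 78 embryos and replicate 2 from a pool of 62, with both sexes in each pool. Both libraries were made from 10 ng of RNA above 200 nucleotides with added spike-in RNA. They form 1 group, with no treatment or mutation in the labels, so values are given for each library, with the mean ± SD over both pools (n = 2) and no test.

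Lecticans are secreted chondroitin sulfate proteoglycans that bind hyaluronan at their amino-terminal end, where link proteins lock the bond. At their other end a lectin-like domain binds tenascins, which crosslink the network. In the developing nervous system this matrix surrounds migrating cells and growing axons and is found around the ventricular zone. In adults it condenses into perineuronal nets, which are rich in aggrecan, tenascin-R and the link proteins.

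Gene expected counts, which are estimated reads per gene, summed to 34678043 in replicate 1 and 41355355 in replicate 2. All 5 neuronal and all 7 radial glia and astrocyte markers reached 1 TPM (a level corrected for transcript length and library size) in both libraries. Tubb3, a neuronal tubulin, had 1060 TPM in replicate 1 and 1275 in replicate 2, and Fabp7, a fatty acid binding protein of radial glia, had 1417 and 1833. Replicate 1 also held RNA of other tissues. Its 7 thymocyte and thymic epithelium markers summed to 418 TPM, against 9.52 in replicate 2, and its 5 epithelial keratin and adhesion markers to 629 TPM, against 8.09. Prss16, a thymic protease, stood at 136 and 0.07 TPM, Cd3g, a CD3 subunit of the T cell receptor complex, at 93.0 and 0, Krt8 at 266 and 1.97, and Krt18 at 254 and 1.57. In bulk tissue, fewer cells of a type and less RNA per cell cannot be told apart.

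In both libraries, 8 of the 9 genes reached 1 TPM, and Acan did so in replicate 2 alone. Of all annotated genes 35.8% did, and of protein-coding genes 63.4%. By mean TPM the order was Ncan, Bcan, Cspg5, Tnc, Ptprz1, Vcan, Tnr, Hapln1 and Acan. No neighbours in that order overlapped: the lower library of each gene stood above the higher library of the next. As a ratio, the nearest approach was Cspg5 at 58.6 TPM in its lower library over Tnc at 55.05 in its higher one. The place of Tnr above Hapln1 by TPM rested on a noncoding transcript of Tnr. Coding transcripts of Tnr alone had 1.74 and 2.03 TPM, below Hapln1 in each library at 1.99 and 3.12. Together the 9 genes summed to 395 TPM in replicate 1 and 418 in replicate 2, of which Ncan alone gave 33.3% and 33.2%.

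**Figure D1:**
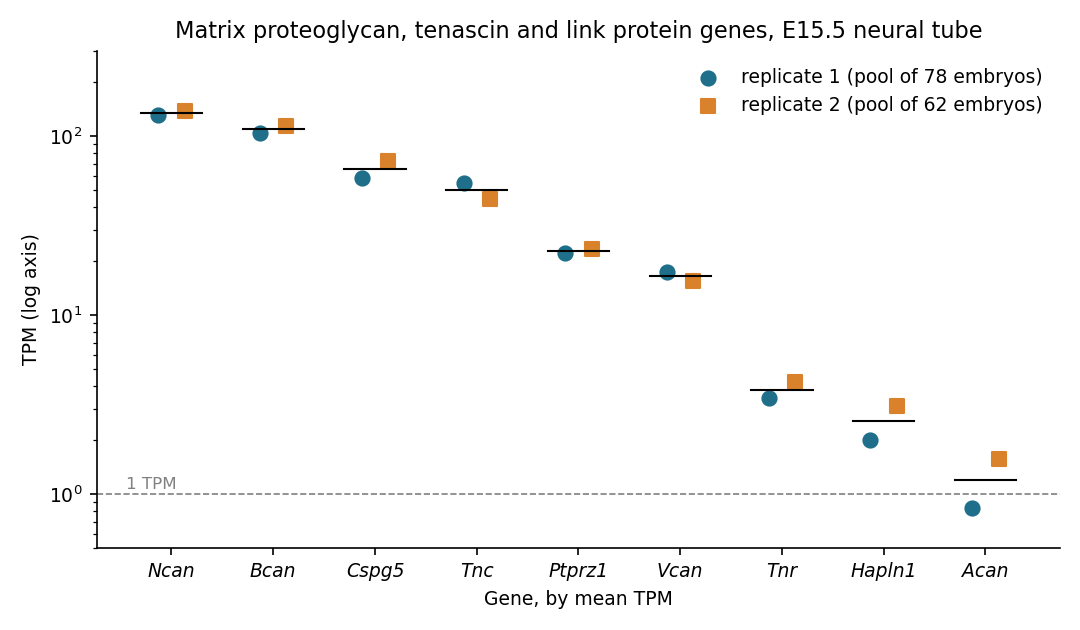
TPM of the 9 genes (log axis) in replicate 1 (circles) and replicate 2 (squares), ordered by mean TPM (black bars), with the 1 TPM level dashed. Ncan and Bcan lie above 100 TPM in both libraries, and Acan in replicate 1 is the only value under the dashed line.

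Neurocan and brevican, the lecticans of the central nervous system, were the most abundant of the set. Ncan (ENSMUSG00000002341.8, chr8:70093085-70120873, minus strand, GRCm38) had 131 TPM in replicate 1 and 139 in replicate 2, from 20701 and 26038 expected counts. Its mean of 135 ± 4.999 TPM was above that of 91.3% of the 13622 protein-coding genes detected in both libraries. Bcan (ENSMUSG00000004892.9, chr3:87987531-88000230, minus strand) had 104 and 114 TPM, with a mean of 109 ± 6.97. The libraries were 1.05-fold apart for Ncan and 1.09-fold for Bcan. Ncan and Bcan together made up 92.8% of lectican TPM in replicate 1 and 93.7% in replicate 2.

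Ncan, Acan, Hapln1 and Cspg5 were each represented by 1 transcript, Ncan-201, Acan-201, Hapln1-201 and Cspg5-201, which held 100% of its gene. With 1 deposited transcript each, that share was fixed in advance. GENCODE release M21 lists 4 further transcripts of Cspg5, 1 of Acan and 1 of Hapln1 that were absent here. Bcan had 6 deposited transcripts, of which the full coding transcript Bcan-201 held 85.7% and 83.4% of the gene's TPM. The rest sat in transcripts with a retained intron, led by Bcan-206 at 8.43% and 8.74%. In total RNA, which includes unspliced RNA, reads in introns can be assigned to such transcripts, and by expected counts the 4 of them took only 5.20% and 5.79% of the gene.

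Versican is the lectican made widely outside the nervous system as well as inside it. Vcan (ENSMUSG00000021614.12, chr13:89655312-89742509, minus strand) had 17.35 TPM in replicate 1 and 15.6 in replicate 2, a mean of 16.5 ± 1.27. It made up 6.83% and 5.77% of lectican TPM, a mean of 6.30 ± 0.753%. Ncan was 7.58 and 8.90 times as abundant as Vcan per transcript.

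Splicing of Vcan decides how much chondroitin sulfate the protein can carry, because its attachment region is coded by 2 large exons. The alpha exon, exon 7 of the full-length transcript, has 2880 bases (chr13:89702918-89705797) and the beta exon, exon 8, has 5217 bases (chr13:89688285-89693501). Both lengths divide by 3, so skipping either keeps the reading frame between exon 6 and exon 9. V0 has both exons, V1 only beta, V2 only alpha, and V3 neither. The junctions below, from GENCODE release M21 transcripts on GRCm38, show how the forms differ at these exons. Reads over the junctions were not counted here, and the annotated forms also differ in the lengths of their first and last exons. Each line gives the last 20 bases of the upstream exon in lower case and the first 20 of the downstream exon in capitals, in transcript direction on the minus strand of chromosome 13.
Exon 6 to alpha, in V0 and V2: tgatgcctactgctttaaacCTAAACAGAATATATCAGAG
Alpha to beta, in V0 alone: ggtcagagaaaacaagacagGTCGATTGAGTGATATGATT
Beta to exon 9, in V0 and V1: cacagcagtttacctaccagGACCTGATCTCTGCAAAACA
Exon 6 to beta, in V1 alone: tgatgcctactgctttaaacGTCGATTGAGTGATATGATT
Alpha to exon 9, in V2 alone: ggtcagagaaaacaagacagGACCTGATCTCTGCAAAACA
Exon 6 to exon 9, in V3 alone: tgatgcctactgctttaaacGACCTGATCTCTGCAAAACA

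V0 and V3, the forms with most and with none of the attachment region, held most of the Vcan signal. V0 (Vcan-203, 12427 bases) had 6.96 TPM in replicate 1 and 6.97 in replicate 2, which was 40.1% and 44.8% of the gene's TPM. V3 (Vcan-201, 2321 bases) had 6.41 and 4.90 TPM, or 36.9% and 31.5%. The share of V0 was above that of V3 in both libraries, and the ratio of V0 to V3 was 1.09 and 1.42.

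The forms with a single attachment exon were low. V1 (Vcan-206) had 0.79 and 0.57 TPM, or 4.55% and 3.69% of the gene, and V2 (Vcan-202) had 0.72 and 0.88 TPM, or 4.16% and 5.64%. V1 was above V2 in replicate 1 and below it in replicate 2, so their order was not the same in both libraries. V0 was 8.81 and 12.2 times as abundant as V1. Of the TPM of the 4 complete forms, those with the beta exon took 52.1% and 56.6%, and those with the alpha exon 51.6% and 58.9%.

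The other 5 Vcan transcripts are annotated over part of the gene only. Vcan-208 held 6.80% and 7.26%, Vcan-207, with a retained intron, 2.40% and 3.44%, Vcan-209 2.30% and 2.33%, Vcan-205 2.73% and 1.27%, and Vcan-204 was listed at 0 in both.

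Length weighs on these shares. By expected counts, which do not correct for it, V0 took 75.6% in replicate 1 and 78.8% in replicate 2, and V3 took 12.5% and 9.99%, from 316 and 289 counts. The annotated last exon has 2047 bases in V0, 1019 in V1, 714 in V2 and 303 in V3, so reads past the shorter ends can be assigned to V0 alone among the 4, whichever attachment exons their molecules had.

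**Figure D2:**
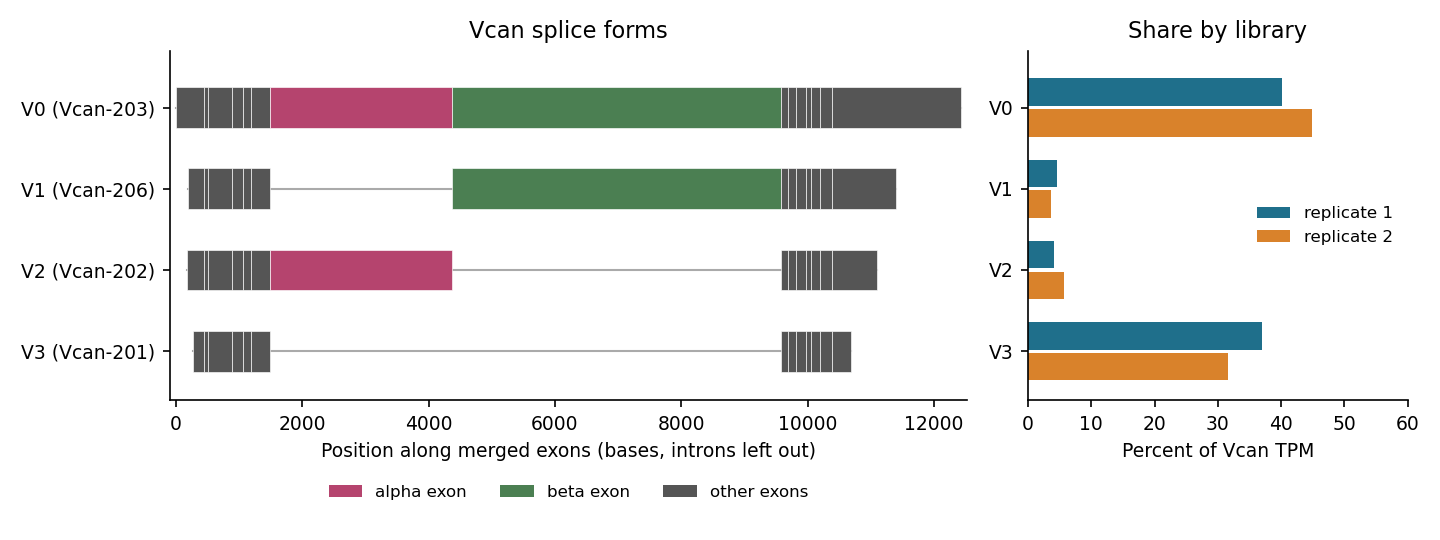
Left, the exons of the 4 complete Vcan forms drawn to scale in bases along the merged exons, with the alpha and beta exons coloured and skipped stretches as thin lines; right, the percent of Vcan TPM in each form in replicate 1 (upper bar) and replicate 2 (lower bar). V0 and V3 each hold between 31.5% and 44.8%, and V1 and V2 each under 6%.

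Aggrecan, the lectican of cartilage and of adult perineuronal nets, was the lowest of the set. Acan (ENSMUSG00000030607.6, chr7:79053483-79115099, plus strand) had 0.83 TPM in replicate 1, from 133 counts with an exact 95% Poisson interval of 0.695 to 0.984 TPM. In replicate 2 it had 1.56 TPM, from 300 counts with an interval of 1.39 to 1.75. The intervals, which cover counting error only, did not overlap, and replicate 2 was 1.88-fold above replicate 1. Acan made up 0.327% and 0.578% of lectican TPM.

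Hapln1, the link protein shared by cartilage and brain, showed the same direction. Hapln1 (ENSMUSG00000021613.8, chr13:89539796-89611652, plus strand) had 1.99 TPM in replicate 1, with an interval of 1.74 to 2.27, and 3.12 in replicate 2, with an interval of 2.83 to 3.44. The values were 1.57-fold apart and the intervals did not overlap. Cartilage genes moved the same way: the 10 cartilage markers summed to 165 TPM in replicate 1 and 251 in replicate 2, all 10 were higher in replicate 2 and none was at 0. Col9a3, a cartilage collagen chain, had 51.6 and 75.2 TPM, and Col2a1, the main cartilage collagen, 27.7 and 51.7. All 5 neuronal markers were higher in replicate 2 too, as were 6 of the 7 radial glia and astrocyte markers, with 1 higher in replicate 1. The part of cartilage, neuronal or glial RNA in the Acan and Hapln1 levels was not tested.

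No member was past 2-fold between the libraries on the log2(TPM + 1) scale, where 7.43% of the 17222 genes at 1 TPM or more in either library were. Of the 9 members, 2 (Tnc and Vcan) were higher in replicate 1 and 7 were higher in replicate 2, and the log2 ratio of replicate 1 to replicate 2 ran from -0.48 for Acan to 0.30 for Tnc. The median over the members was -0.13 and over all those genes 0.02. Adding 1 TPM shrinks the ratios of low genes: with 0.1 TPM added in its place, Acan stood at -0.836 and Hapln1 at -0.624.

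**Figure D3:**
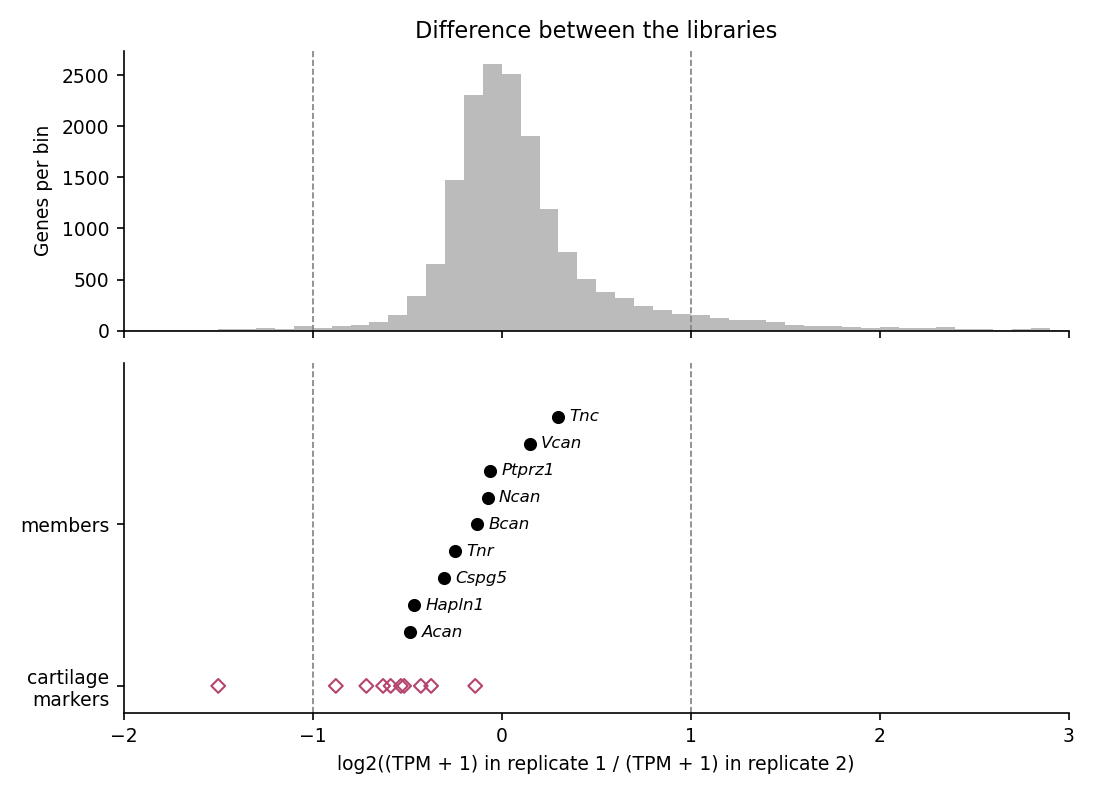
Upper panel, number of genes by log2 ratio of (TPM + 1) in replicate 1 to replicate 2, for genes at 1 TPM or more in either library, in bins of 0.1; lower panel, the same ratio for the 9 members (filled circles) and the 10 cartilage markers (open diamonds). All members lie between the dashed 2-fold lines, all cartilage markers lie below 0, and 158 genes outside the range from -2 to 3 are not drawn.

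Each lectican gene has a link protein gene as its neighbour on the chromosome, with no annotated gene between them, and in none of the 4 pairs did the levels of the neighbours overlap. Ncan and Hapln4 lie tail to tail on chromosome 8 with 2222 bases between them. Ncan had 131 TPM in replicate 1 and 139 in replicate 2, and Hapln4, a link protein of adult perineuronal nets, 1.21 and 1.14. The ratio was 109 and 122. Bcan and Hapln2, the link protein of nodes of Ranvier, run in the same direction on chromosome 3 with 21519 bases between them. Bcan had 104 and 114 TPM and Hapln2 0.28 and 0.72, a ratio of 372 and 159. Hapln2 rested on 13 and 26 expected counts, and posterior mean TPM gave a mean ratio of 155 in place of 265. In both pairs a lectican above 100 TPM stood beside a link protein gene near or under 1 TPM.

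The other pairs were closer in level. Vcan and Hapln1 lie tail to tail on chromosome 13 with 43659 bases between them, and Vcan exceeded Hapln1 by 8.72 and 4.99 times. Acan and Hapln3 also lie tail to tail, on chromosome 7, with only 2 bases between their annotated ends. Acan was below Hapln3 in both libraries, at 0.83 and 1.56 TPM against 2.50 and 2.09 for Hapln3, a ratio of 0.332 and 0.746. By CPM, which does not correct for length, the direction turned, with a mean ratio of 2.93. At that distance, and since no source used here says whether counting used strand, reads at the shared end cannot be placed surely. Hapln3 rested on 74 counts in each library. In replicate 2 its 95% Poisson interval of 1.64 to 2.62 TPM overlapped that of Acan, 1.39 to 1.75. Over all 4 pairs, the lecticans summed to 254 TPM in replicate 1 and 270 in replicate 2, and the link proteins to 5.98 and 7.07, so lectican RNA was 42.5 and 38.2 times as abundant. Hapln1 gave 33.3% and 44.1% of link protein TPM and Hapln3 41.8% and 29.6%, so which of them led differed between the libraries.

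**Figure D4:**
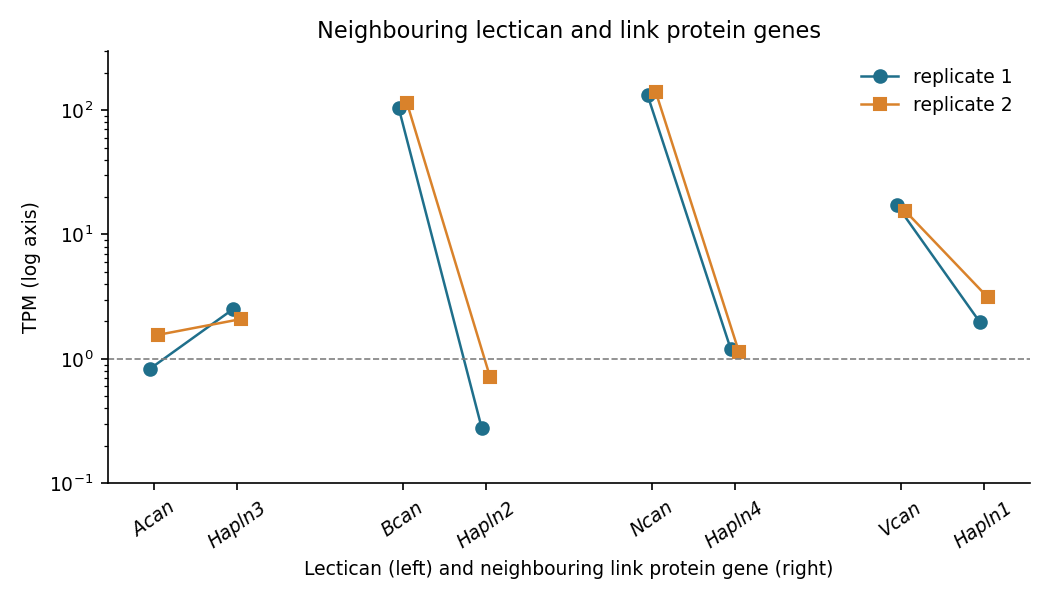
TPM (log axis) of each lectican gene (left of each pair) and its neighbouring link protein gene (right), joined by a line for replicate 1 (circles) and replicate 2 (squares), with 1 TPM dashed. The lines fall steeply for Bcan with Hapln2 and Ncan with Hapln4, less for Vcan with Hapln1, and go up for Acan with Hapln3, where the direction turns by CPM.

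Tenascin-C is the embryonic tenascin of progenitor zones, glia and connective tissue, and tenascin-R appears with oligodendrocyte lineage cells and some neurons. Tnc (ENSMUSG00000028364.11, chr4:63959785-64047015, minus strand) had 55.05 TPM in replicate 1 and 44.5 in replicate 2, a mean of 49.8 ± 7.43, and was 1.24-fold higher in replicate 1. Tnr (ENSMUSG00000015829.9, chr1:159523769-159931729, plus strand) had 3.42 and 4.25 TPM. The ratio of Tnc to Tnr was 16.1 in replicate 1 and 10.5 in replicate 2, so Tnc was the more abundant tenascin in both.

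Mesenchyme markers were also higher in replicate 1. The 7 mesenchyme and meninges markers summed to 1022 TPM there and 784 in replicate 2, with 5 of the 7 higher in replicate 1 and none at 0. Col3a1, a fibrillar collagen of loose connective tissue, had 432 and 288 TPM, and Col1a1 308 and 260. Their part in the Tnc difference, and that of the thymic and epithelial RNA in replicate 1, was not tested.

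A noncoding transcript carried about as much of the Tnr TPM as all its coding transcripts, which held 50.7% in replicate 1 and 47.9% in replicate 2. Tnr-205, a noncoding transcript of 660 bases with a retained intron that ends before the coding sequence begins, held 49.2% of the gene's TPM in replicate 1 and 52.05% in replicate 2. It did so on only 20.97 and 32.88 expected counts, because TPM divides by length. The full coding transcripts Tnr-202 and Tnr-201 held 35.8% and 26.6%, and 14.9% and 19.4%. With coding transcripts alone, Tnr had 1.74 and 2.03 TPM, and the ratio of Tnc to Tnr became 31.6 and 21.9. An antisense gene at the 3′ end of Tnr, Gm38039, had 11.5 and 14.2 TPM. Without known use of strand, reads there cannot be told apart between the genes.

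Among the deposited Tnc transcripts, nearly all TPM was assigned to a pair with nearly equal shares. Fibronectin type III repeats in the middle of tenascin-C are alternatively spliced, and larger forms are known in proliferating and migrating tissue. Tnc-203 had 26.8 TPM in replicate 1 and 22.9 in replicate 2, or 48.6% and 51.4% of the gene, and Tnc-204 had 28.1 and 21.3 TPM, or 51.1% and 47.8%. Which was higher differed between the libraries. Tnc-203 holds exon 14, which Tnc-204 skips. That exon has 273 bases (chr4:63984460-63984732, minus strand), divides by 3 and is shown whole because its presence is the coding difference between the transcripts.
Tnc exon 14: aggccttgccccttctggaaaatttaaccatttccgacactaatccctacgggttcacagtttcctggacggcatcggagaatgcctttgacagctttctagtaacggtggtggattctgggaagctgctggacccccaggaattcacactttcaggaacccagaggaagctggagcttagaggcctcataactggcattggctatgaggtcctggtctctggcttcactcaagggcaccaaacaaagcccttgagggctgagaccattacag
Tnc-204 joins the flanking exons directly, upstream in lower case and downstream in capitals.
Tnc exon 13 to exon 15: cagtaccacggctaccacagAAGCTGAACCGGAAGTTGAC

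Exon 14 is one of 6 exons in a row, 10 to 15, that have the same length of 273 bases. Compared base by base without gaps, it was identical to the other 5 at 48.4% to 50.2% of positions, while exons 10 and 12 were identical at 80.2%. Tnc-204 also has an added first exon of 267 bases that Tnc-203 lacks, and no deposited Tnc transcript has both that exon and exon 14. Reads at the start of the gene therefore weigh on the split, which is not a measure of exon 14 alone. Tnc-203 and Tnc-204 both hold the other 5 exons of 273 bases. Reads of any smaller form without those exons could be assigned to this pair, so the split does not show which sizes were made. Tnc-201, with neither exon, was listed at 0, and the short Tnc-202 held 0.29% and 0.77%. The gene 8030451A03Rik, on the opposite strand over Tnc, had 2.42 and 2.60 TPM.

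Cspg5 and Ptprz1 are chondroitin sulfate proteoglycans held in the cell membrane. Cspg5, neuroglycan C, a proteoglycan with an EGF-like domain, was the third most abundant member. Cspg5 (ENSMUSG00000032482.5, chr9:110243783-110262576, plus strand) had 58.6 TPM in replicate 1 and 72.5 in replicate 2, 1.24-fold higher in replicate 2, with a mean of 65.6 ± 9.86. All 5 neuronal markers were higher in replicate 2 too and summed to 2338 TPM in replicate 1 and 2809 in replicate 2. Stmn2, a neuronal microtubule regulator, had 871 and 1077 TPM. The 7 radial glia and astrocyte markers also summed higher in replicate 2, at 2408 and 2866 TPM, with 6 of the 7 higher there and 1 higher in replicate 1. The part of neuronal or glial content in the Cspg5 difference was not tested.

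Ptprz1 encodes a receptor tyrosine phosphatase of radial glia and oligodendrocyte precursors. Its secreted form is phosphacan, and tenascins, contactin and the growth factors pleiotrophin and midkine bind it. Ptprz1 (ENSMUSG00000068748.4, chr6:22875502-23052916, plus strand) had 22.25 TPM in replicate 1 and 23.3 in replicate 2, a mean of 22.8 ± 0.714. By TPM its libraries were the closest of the 9, with a coefficient of variation of 3.14%. On scaled counts in place of TPM, by either scaling used, those of Vcan and Tnr were closer. Vim, an intermediate filament of radial glia, had 407 and 365 TPM, and 6 of the 7 radial glia and astrocyte markers were higher in replicate 2. The 5 oligodendrocyte precursor markers summed to 103 and 107 TPM, with Olig1, a lineage transcription factor, at 63.6 and 71.1 and Pdgfra, the platelet-derived growth factor receptor, at 14.6 and 12.1. Of the 5 Schwann cell markers, 4 were detected.

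The receptor and secreted forms of Ptprz1 could not be separated. The deposited tables hold 1 Ptprz1 transcript, Ptprz1-201, which takes 100% of the gene in both libraries. It has 30 exons and codes for the long receptor, whose exon 12 of 3547 bases (chr6:22999200-23002746) carries most chondroitin sulfate attachment. GENCODE M21 lists 5 further transcripts that the deposited tables do not have. Ptprz1-204 has a shortened exon 12 of 1000 bases and a coding length of 4389 bases, against 6936 in Ptprz1-201. Ptprz1-206 ends in exon 12, extended to 5479 bases, and so codes for a form without membrane span and phosphatase domains. Reads from either could be counted to Ptprz1-201 where they overlap it.

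The wider pathway was covered by 12 lists of 70 genes, chosen by function with earlier results of these data known. Of these, 63 reached 1 TPM in both libraries and 7 were under 1 TPM in both, where 35.8% of all annotated genes and 63.4% of protein-coding genes reached 1 TPM in both. The median of the 70 genes was 8.91 TPM in replicate 1 and 7.52 in replicate 2, against 19.985 and 19.045 over the 13622 detected protein-coding genes. The 70 include the 7 genes under 1 TPM and the 13622 hold no such genes, so the medians are not over like sets. Of the 70, 1 gene was past 2-fold between the libraries, against 7.43% of genes at 1 TPM or more in either library: Hmmr, a hyaluronan-binding protein of dividing cells, with 10.9 TPM in replicate 1 and 4.11 in replicate 2.

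Partners of Ptprz1, Ncan and Tnr at the cell surface were high: all 7 were detected and their median was 70.8 and 78.5 TPM. Ncam1, the neural cell adhesion molecule, had 286 and 313 TPM, and Ptn, pleiotrophin, had 249 and 280, which was 11.2 and 12.1 times the level of Ptprz1. Mdk, midkine, named after its values were seen, had 199 and 132 TPM. All 4 receptors of chondroitin sulfate were detected, with Ptprs, a receptor phosphatase through which these chains inhibit axon growth, at 124 and 143 TPM, and Ptprf, its relative, at 45.3 and 36.9.

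All 12 genes of chondroitin chain synthesis were detected. B3gat3, which completes the sugar linker of the chain, had 63.4 and 70.2 TPM, and Chpf, a chondroitin polymerizing factor, 39.8 and 42.5. Of the 10 genes of sulfation and epimerization, 9 were detected, led by Chst12, a 4-O-sulfotransferase, at 24.6 and 25.1 TPM and Chst15, which adds a further sulfate, at 15.2 and 13.4. Chst13 had 0.29 TPM in both. Among the 6 other chondroitin sulfate proteoglycans, all detected, Dcn, the connective tissue proteoglycan decorin, had 116 and 97.7 TPM and Spock3, a testican, 94.6 and 110 TPM.

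Genes that make hyaluronan were low. Has2, the main embryonic hyaluronan synthase, had 0.29 TPM in replicate 1 and 0.14 in replicate 2. The other synthases, named after their values were seen, were Has1 at 1.29 and 1.06 TPM and Has3 at 1.34 and 1.81. Of the genes of turnover, Hyal2, a membrane-anchored hyaluronidase, had 47.1 and 45.8 TPM, Cemip2 12.2 and 11.9, and Cemip 0.84 and 0.68. Among 4 hyaluronan receptors 3 were detected, Cd44 stood at 8.03 and 5.68 TPM beside Hmmr, and Stab2, of sinusoidal endothelium, at 0.07 and 0.28.

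The other tenascins were both under 1 TPM, Tnn at 0.74 and 0.17 and Tnxb at 0.52 and 0.41. All 5 tenascin-binding integrin subunits were detected, with Itgb1, the common beta subunit, at 97.8 and 75.2 TPM and Itgav at 24.4 and 23.7. All 3 matrix partners of versican were detected, with the fibulins Fbln1 at 54.0 and 44.4 TPM and Fbln2 at 38.8 and 27.1. All 7 lectican-cleaving proteases were detected at under 10 TPM, led by Adamts1 at 9.49 and 6.57 TPM and Adamts5 at 5.12 and 5.28.

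**Figure D5:**
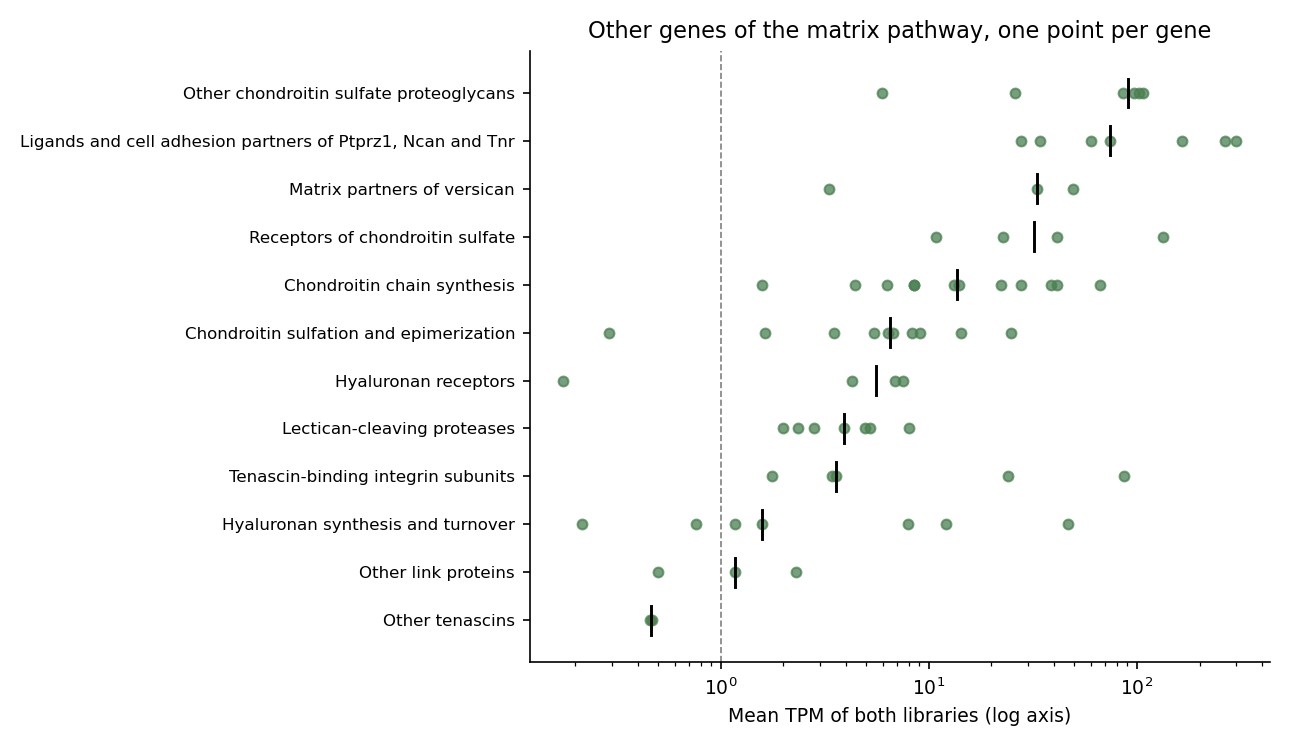
Mean TPM of both libraries (log axis) for each of the 70 genes of the wider pathway, 1 point per gene, in 12 lists ordered by their median (black bars), with 1 TPM dashed. Other chondroitin sulfate proteoglycans and the surface partners lie highest, and both other tenascins lie under 1 TPM.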

How the data were processed

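The deposited sample notes name mm10 and GENCODE release M4. The aligner, quantifier and strand setting were not given in the sources used here. Expected counts were deposited by the authors, as estimates that need not be whole because reads can be shared between transcripts. TPM was deposited by the authors, together with posterior mean TPM. FPKM was deposited too and served as an alternative for the order of the genes. Transcript shares are the percent values the authors deposited. Interval bounds, entered as a score per the file headers, were left unused. Spike-ins and number-only entries were left out of gene counts, and they held 5.00% and 5.43% of TPM.

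Symbols, coordinates and exons came from GENCODE M21 on GRCm38, the assembly mm10 names; 42462 of 43346 genes matched. Of the 29 member transcripts, 28 had the same length in both releases, all but that of Hapln1. The members and lists were chosen with earlier results of these data known. Detection meant at least 1 TPM in each library, and a gene was past 2-fold at an absolute log2((TPM + 1) ratio) of 1 or more. Exact Poisson 95% intervals were taken on counts; 3 counts correspond to 0.0187 TPM of Acan in replicate 1. Named were all members, all transcripts of Vcan and Ptprz1, other members' transcripts at 10% or more of a gene, the 2 highest genes of each list, and genes of the wider pathway lists under 1 TPM in both libraries; some smaller transcripts were added, and the highest genes of 1 marker list are not reported here. Whether the pools differ technically as well as biologically is not separable with 2 libraries. Rounded expected counts gave TMM factors in edgeR 4.0.16 and size factors in DESeq2 1.42.0, for scaling alternatives only. The 2-fold call was run on simulated data with counting noise alone and changes larger than 2-fold. Genes as low as Tnr, Hapln1 and Acan were left out of that simulation, so it does not bear on them. Other alternatives were the detection level, posterior means, counts without length correction and leaving out each library.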

Additional observations from a re-analysis of the deposited data

How the results depend on the processing

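Without length correction, on counts scaled to library size alone (CPM), the Vcan share of lecticans was 8.11% against 6.30%, Tnc over Tnr was 19.1 against 13.3, Acan over Hapln3 was 2.93 against 0.539, so that Acan stood above its neighbour, and Ncan over Hapln4 was 235 against 115. On that scale Tnc came second and 6 of the 9 members kept their place. By share of expected counts, V0 was 77.2% of Vcan against 42.5% by TPM, V1 5.03% against 4.12%, and V3 11.3% against 34.2%. With coding transcripts only, an alternative chosen after seeing the data, Tnc over Tnr was 26.8. Tnr then came below Hapln1, with means of 1.885 and 2.555 TPM. With posterior mean TPM, Bcan over Hapln2 was 155 against 265. Posterior means, FPKM, each detection level and each scaling left every member count within 1.5 times. Members detected ran from 6 at 5 TPM to 9 at 0.5 TPM, and detected genes of the wider lists from 44 to 64. Without replicate 1 or without replicate 2, detected members numbered 9 and 8, Bcan over Hapln2 was 159 and 372, Vcan over Hapln1 4.99 and 8.72, and Acan over Hapln3 0.746 and 0.332. Members past 2-fold stayed at 0 under both pseudocounts and both scalings, with unchanged directions for all 9. Acan came closest, at a log2 ratio of -0.957 with DESeq2 size factors. Dropping the filter on low values could not change this count, because all 9 members reached 1 TPM in at least 1 library. No paired analysis was possible because both libraries form 1 group. With 2 pools, no spread between embryos can be given, and values of Acan, Hapln1 and Tnr rest on 133 to 491 counts, and those of Hapln2 on 13 and 26.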

Other observations

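Other transcripts or genes lie over the members, and reads of the overlap cannot be told apart without strand. Gm4117 and Gm16318, opposite to Vcan, had 0.19 and 0.15 TPM and 0.18 and 0.08 TPM. Gm8546, a pseudogene opposite to Hapln1, had 0.88 and 0.61 TPM on 22.6 and 18.6 expected counts, and Gm37731, within Tnr on the same strand, had 0.13 and 0.41 TPM. Mir7066, inside Ncan, and Gm10530, inside Tnr, were listed at 0.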
